A study of Homo sapiens with 12 samples.

Results

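The genes that carry a fatty acid from its release to its breakdown, 9 in number, were followed in 3 gastric cancer cell lines, each sorted into CD133+ and CD133- cells. They were taken by name from 34595 genes with a value, and all 9 were among the 20147 genes that were bright enough to be tested. PECI and MGLL were selected on their log2 changes between the fractions over all lines, 1.51 and -1.40, so their changes between fractions are given as values with no test. The other 7 genes, CPT1A, CPT2, ACADVL, ACADM, HADHA, HADHB and DCI, were chosen for their function, with earlier results of these data known. PECI is now called ECI2 and DCI is now called ECI1, and RefSeq lists both older names as synonyms. Here each gene keeps the symbol of its row.

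KATO-III, SNU-216 and SNU-601 are established gastric cancer lines that were grown untreated in the same serum-supplemented medium. Cells were stained for CD133, the membrane protein encoded by PROM1, and the brightest 10% (CD133+) and the dimmest 6% (CD133-) were sorted. RNA of each of the 6 populations was hybridized to 2 Illumina BeadChip arrays, 12 arrays in all. The array labels and the paper name SNU-216, where the design text of the series has SNU201. The labels number the 2 arrays as replicates and do not say whether they come from separate sorts, so every p-value measures the spread between these arrays, which may be technical. Array medians differed by little, the highest being 27.1, and between 16320 and 16474 genes lay above the floor, an intensity of 32.7. The authors' quantile normalization makes such figures alike, so they do not measure the quality of the arrays. PROM1 was 2.15-fold higher in CD133+ than in CD133- cells of KATO-III, 4.05-fold higher in SNU-216 and 3.62-fold higher in SNU-601, and its lowest intensity, in CD133- cells of SNU-601, was still 1320 ± 6.44 (SD, n = 2 arrays). The epithelial markers EPCAM, KRT8, KRT18, KRT19 and CDH1 lay above the floor on all 12 arrays, whereas PTPRC, CD3E, COL3A1 and DCN did not exceed it on any. Among other markers of leukocytes and fibroblasts, CD68 lay above the floor on all 12 arrays, COL1A1 on 7, CD14 and LUM on 6 and COL1A2 on 1.

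Fatty acids are released from stored glycerides by lipases, activated to acyl-CoA, passed into the mitochondrion as carnitine esters and shortened there by rounds of dehydrogenation, hydration, dehydrogenation and thiolysis. MGLL, monoacylglycerol lipase, takes the last acyl chain off the glycerol backbone and also degrades an endocannabinoid. CPT1A and CPT2 are the outer and inner carnitine palmitoyltransferases. ACADVL and ACADM are the dehydrogenases of very long and medium chains, HADHA and HADHB are the alpha and beta subunits of the mitochondrial trifunctional protein, and DCI and PECI move misplaced double bonds of unsaturated chains, with PECI found in peroxisomes.

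RefSeq promoter windows of the assembly GRCh38.p14, which run from 250 bases before to 50 bases after an annotated start, were found for 8 of the 9 genes, and none was found for MGLL. The stretch upstream of PECI is shown since PECI had the largest increase of the 9 genes. It is chr6:4135576-4135825 on the minus strand, and the gene lies at chr6:4115706-4135575. Capitals mark the GC box (GGGCGG on either strand), which occurred 5 times:

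PECI: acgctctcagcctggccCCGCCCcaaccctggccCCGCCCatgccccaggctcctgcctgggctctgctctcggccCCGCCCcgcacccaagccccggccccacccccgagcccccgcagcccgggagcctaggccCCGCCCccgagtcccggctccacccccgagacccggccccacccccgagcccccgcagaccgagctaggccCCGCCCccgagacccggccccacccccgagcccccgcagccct

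HADHA and HADHB lie head to head on chromosome 2 and their annotated starts are 307 bases apart. The stretch that both promoter windows share is shown since the intensities of both genes went opposite ways in KATO-III. It is chr2:26244689-26244882, read on the plus strand towards HADHB, and holds 1 GC box, again in capitals:

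HADHA and HADHB: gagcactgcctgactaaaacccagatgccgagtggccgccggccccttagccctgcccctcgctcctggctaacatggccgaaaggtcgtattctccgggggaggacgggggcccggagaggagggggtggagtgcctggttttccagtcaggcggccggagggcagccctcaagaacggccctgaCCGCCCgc

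Over the 10 windows of the 8 genes, 7 genes had a GC box, which was found in 45.0% of 35116 promoter windows of the same length. None of the 8 had the nuclear receptor core AGGTCA on either strand (13.8% of all windows), and so none had the direct repeat of that core called DR1 (0.0228%). A match is a description of the letters and not of a bound site, and no match says only that these letters are not in the window.

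MGLL, the lipase, had lower intensities in CD133+ than in CD133- cells of each line, and the size of the difference varied. In KATO-III its intensity was 71.3 and 76.6 on the CD133+ arrays and 407 and 383 on the CD133- arrays, a ratio of 5.34 between the means. In SNU-216 it was 199 and 242 against 635 and 674, a ratio of 2.97. In SNU-601 it was 572 and 569 against 687 and 637, a ratio of only 1.16. The fractions did not overlap in any line, and CD133+ cells of KATO-III had the lowest level of the 6 populations. MGLL was selected on the difference between fractions, so their separation is not support for it. The 2 highest populations, CD133- cells of SNU-601 and of SNU-216, overlapped one another. The log2 changes were -2.42, -1.58 and -0.21 in KATO-III, SNU-216 and SNU-601, and with an offset of 100 in place of the floor the change in KATO-III was -1.51.

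PECI, the peroxisomal isomerase, showed the opposite order, with higher intensities in CD133+ cells of each line. Its intensity was 577 and 584 on the CD133+ arrays of KATO-III against 256 and 262 on the CD133- arrays. In SNU-216 it was 190 and 201 against 25.4 and 33.1, and the lower of the CD133- values lay under the floor. In SNU-601 it was 160 and 136 against 78.9 and 93.1. All 6 populations were separate from their neighbors in the order of levels, from CD133+ cells of KATO-III at the top to CD133- cells of SNU-216 at the bottom. PECI was selected on the difference between fractions, so the separation of fractions within a line is not support for it. The log2 changes were 1.17 in KATO-III, 2.57 in SNU-216, where the floor sets the size, and 0.79 in SNU-601. With a floor 3 times as high the change in SNU-216 was 0.996. With an offset of 100 in place of the floor it was 1.19, and that in SNU-601 was 0.42.

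**Figure D1:**
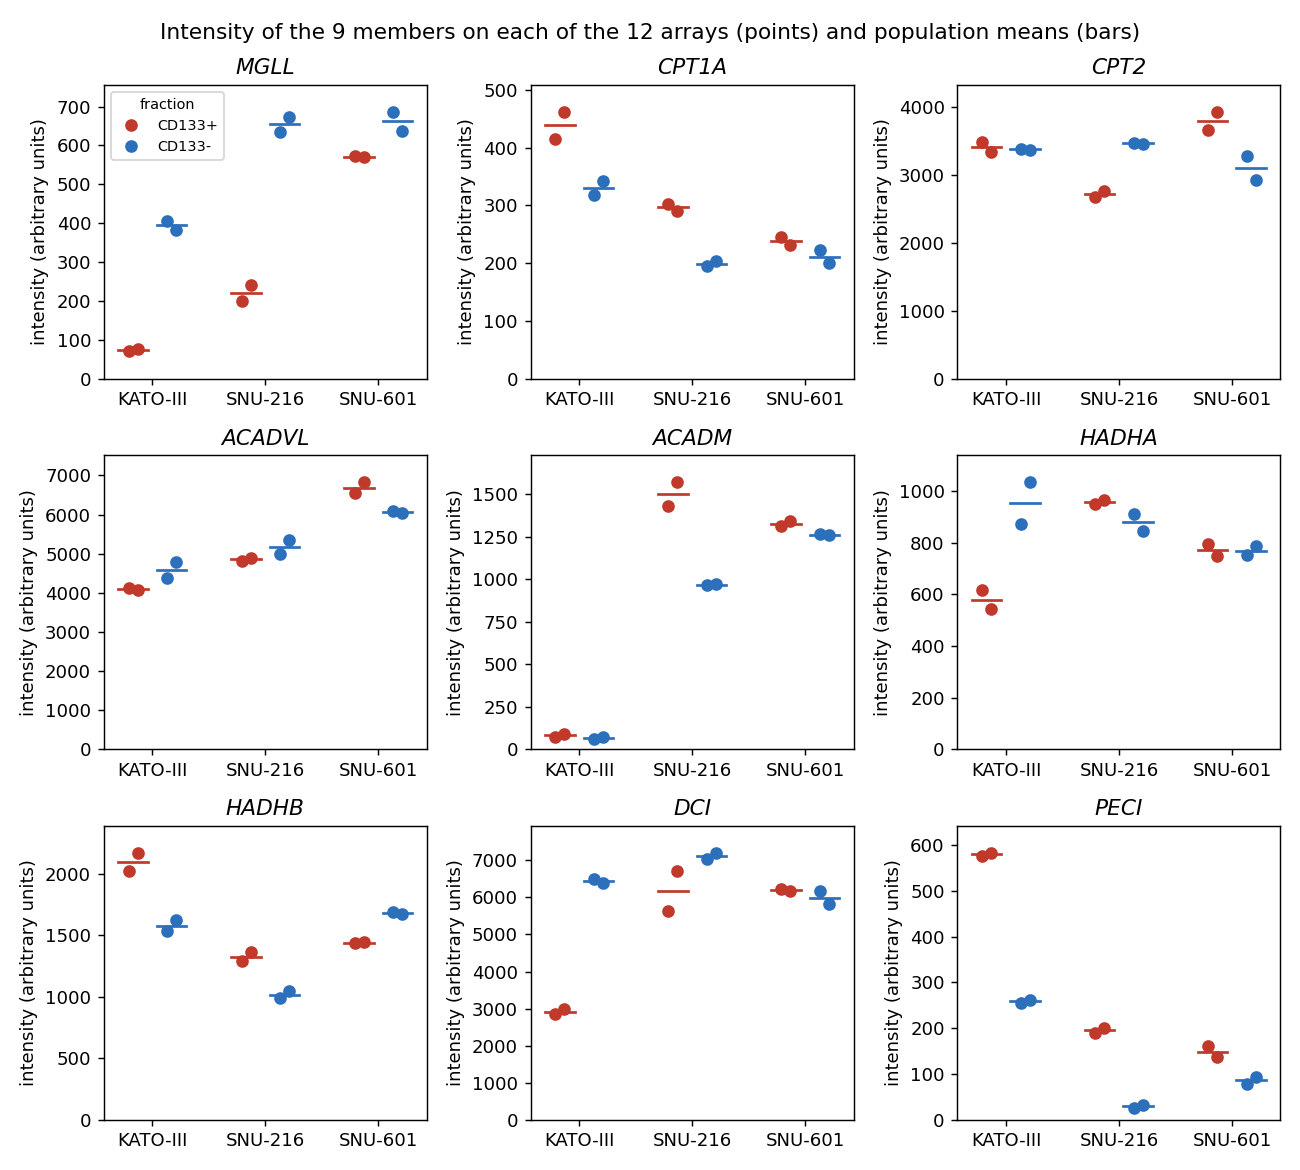
Intensity of each of the 9 genes (y axis, linear, arbitrary units) in CD133+ (red) and CD133- (blue) cells of the 3 lines, with a point per array and a bar for the mean of the 2 arrays. MGLL lies lower and PECI higher in CD133+ cells of every line, and ACADM in KATO-III lies at 88.4 or less on all 4 arrays.

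CPT1A, the carnitine transferase that admits long-chain acyl groups to the mitochondrion, rose in CD133+ cells of 2 lines, and its partner CPT2 went opposite ways in 2 lines. CPT1A was 415 and 463 in CD133+ against 318 and 343 in CD133- in KATO-III. In SNU-216 it was 303 and 290 against 194 and 204. The log2 changes were 0.41 (standard error 0.0959, adjusted p = 0.00869) and 0.57 (adjusted p = 0.00216, limma). In SNU-601 CPT1A was 246 and 231 against 223 and 200, a log2 change of 0.17 with a 95% interval from -0.04 to 0.39 (adjusted p = 0.286). The CD133+ arrays of CPT1A lay above the CD133- arrays in each of the 3 lines, and so did those of ACADM. The share of all genes with such separate arrays was not counted, so this is not support for a rise of CPT1A in SNU-601. CPT2 was much brighter, and it fell in SNU-216 from 3471 and 3464 on the CD133- arrays to 2680 and 2772 on the CD133+ arrays (log2 change -0.35, adjusted p = 0.00246). It rose in SNU-601, where it was 3662 and 3937 in CD133+ against 3279 and 2925 in CD133- cells (log2 change 0.29, adjusted p = 0.0111). In KATO-III the fractions of CPT2 overlapped, at 3482 and 3343 against 3383 and 3377, and the interval of the log2 change ran from -0.12 to 0.15. The call of CPT1A in KATO-III was lost without CD133+ replicate 2 (adjusted p = 0.0632) or CD133- replicate 1 of that line (0.0563). That of CPT2 in SNU-601 was lost without replicate 2 of the CD133+ (0.0697) or of the CD133- arrays (0.0584), and with the replicate number as a block (0.0578). In fits of only the arrays of a line, which have fewer arrays, the calls of CPT1A in KATO-III (0.0716) and SNU-216 (0.0566) and of CPT2 in SNU-601 (0.209) were lost.

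The dehydrogenases of the first oxidation step differed more between the lines than between the fractions. ACADM rose in SNU-216, with 1431 and 1571 in CD133+ against 964 and 969 in CD133- cells (log2 change 0.63, standard error 0.100, adjusted p = 0.00159, limma). It was 74.1 and 88.4 against 61.9 and 71.5 in KATO-III (0.28, adjusted p = 0.0523), and 1312 and 1339 against 1264 and 1258 in SNU-601 (0.07, interval from -0.16 to 0.30). In KATO-III the change of ACADM passed the threshold with the arrays centred on their medians (adjusted p = 0.0285), with quantile normalization repeated (0.0313), over genes above the floor on all arrays (0.0369) and with the replicate number as a block (0.0232). It also passed without CD133+ replicate 1 (0.0169) or CD133- replicate 2 of that line (0.0319). ACADVL, among the brighter of the 9 genes, fell slightly in KATO-III, from 4378 and 4796 on the CD133- arrays to 4109 and 4065 on the CD133+ arrays (log2 change -0.17, adjusted p = 0.0346). It was 4821 and 4879 in CD133+ against 4992 and 5338 in CD133- cells of SNU-216, and 6545 and 6828 against 6077 and 6051 in SNU-601, with adjusted p of 0.265 and 0.112. The call of ACADVL in KATO-III was lost without CD133+ replicate 1 (0.094), CD133+ replicate 2 (0.121) or CD133- replicate 2 (0.215), with the arrays centred on their medians (0.0972), with no filter (0.0645), without a trend (0.0934), with the replicate number as a block (0.0619) and with only the arrays of that line (0.161).

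The subunits of the trifunctional protein parted in KATO-III. HADHA, which holds the hydratase and hydroxyacyl-CoA dehydrogenase, fell there from 873 and 1034 on the CD133- arrays to 614 and 543 on the CD133+ arrays (log2 change -0.72, standard error 0.0916, adjusted p = 0.000295, limma). HADHB, which holds the thiolase, rose there from 1532 and 1622 to 2023 and 2173 (log2 change 0.41, standard error 0.0542, adjusted p = 0.000355). The 95% intervals of these changes, -0.93 to -0.51 for HADHA and 0.29 to 0.54 for HADHB, lie on opposite sides of 0. In SNU-216 HADHB rose as well, from 993 and 1044 to 1289 and 1362 (log2 change 0.38, adjusted p = 0.000925), while HADHA was 950 and 966 in CD133+ against 911 and 845 in CD133- cells (0.13, interval from -0.08 to 0.34). In SNU-601 HADHB fell from 1694 and 1673 to 1439 and 1444 (-0.22, adjusted p = 0.0237), and the HADHA arrays of both fractions overlapped, at 792 and 746 against 751 and 786. The call of HADHB in SNU-601 was lost without any 1 of the 4 arrays of that line, with adjusted p between 0.0792 and 0.0982, without a trend (0.0645) and with only those arrays (0.0521). With only the arrays of KATO-III the call of HADHA there was lost as well (0.0550).

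DCI, the mitochondrial isomerase, had the largest change between fractions among the 7 tested genes. In KATO-III it fell from 6510 and 6384 on the CD133- arrays to 2856 and 2981 on the CD133+ arrays (log2 change -1.14, standard error 0.0737, adjusted p = 6.67e-06, limma), so it went the other way from PECI, the peroxisomal isomerase, in that line. In SNU-216 it was 5639 and 6717 in CD133+ against 7050 and 7210 in CD133- cells (-0.21, adjusted p = 0.0620), and the CD133+ arrays stood far apart. Without CD133+ replicate 2 of SNU-216 that change was -0.34 (adjusted p = 0.00424). It also passed with a floor 3 times as high (0.0447), with an offset in place of the floor (0.0385) and over genes above the floor on all arrays (0.0292). In SNU-601 it was 6237 and 6182 against 6178 and 5815 (0.05, interval from -0.12 to 0.22).

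**Figure D2:**
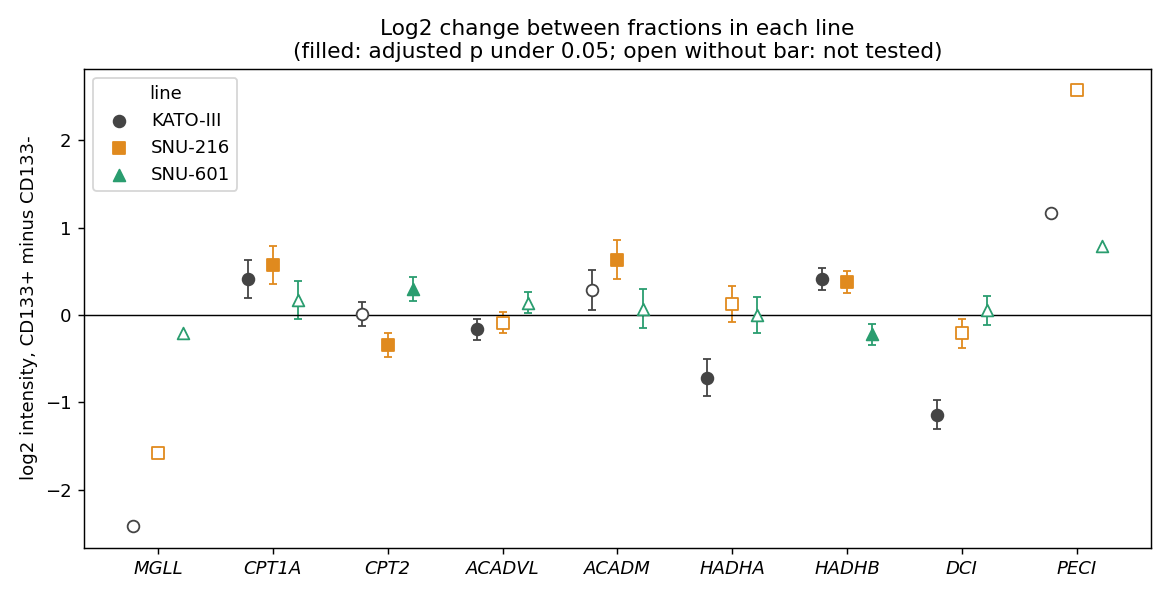
Log2 change of intensity, CD133+ minus CD133-, of the 9 genes in KATO-III (circles), SNU-216 (squares) and SNU-601 (triangles), with 95% intervals from limma. Filled symbols passed an adjusted p of 0.05, and MGLL and PECI have open symbols with no interval since they were not tested; DCI in KATO-III has the largest tested change, -1.14.

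Of the 7 tested genes, limma called 5 in KATO-III, 2 higher and 3 lower, where 39.3% of all tested genes were called. It called 4 in SNU-216, 3 higher and 1 lower, where the share of all genes was 28.6%, and 2 in SNU-601, 1 in each direction, where it was 16.4%. All 7 lay above the floor on all 12 arrays. Of such brighter genes 51.4% were called in KATO-III, 40.1% in SNU-216 and 22.4% in SNU-601. The median log2 change of the 7 genes was 0.01 in KATO-III, 0.13 in SNU-216 and 0.07 in SNU-601, and that of all tested genes was 0 in each line. None of the 7 was called in all 3 lines in the same direction. With all lines in a fit that had the line as a block, limma called CPT1A (log2 change 0.39, standard error 0.0953, adjusted p = 0.0438) and none of the other 6, where 4.73% of all genes were called, 2.62% higher and 2.11% lower. CPT1A stayed past the threshold in only 2 of the 12 fits that left out an array. With each population reduced to the mean of its 2 arrays, its adjusted p was 0.796. It was 0.327 with population as a random block, 0.192 with the replicate number as a block and 0.0525 with a floor of 16.3.

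A test of whether the lines changed alike, limma's F-test for interaction, was passed by 6 of the 7 genes and by 44.4% of all tested genes. The log2 change of DCI in KATO-III minus that in SNU-601 was -1.19 (adjusted p = 7.01e-05), and minus that in SNU-216 it was -0.93 (adjusted p = 0.000220). HADHB changed by 0.64 more in KATO-III and by 0.60 more in SNU-216 than in SNU-601. CPT2 changed by -0.64 in SNU-216 relative to SNU-601. CPT1A was the exception, with an adjusted p of 0.0952.

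The level of a line, taken as the mean of both fractions on 4 arrays, was not the value on which PECI and MGLL were selected. The F-test over the lines passed for all 9, where it passed for 72.3% of all tested genes, and pairs of lines differed for 62% (KATO-III and SNU-216), 58.6% (KATO-III and SNU-601) and 56.5% (SNU-216 and SNU-601) of all genes. ACADM stood out in size. It was between 61.9 and 88.4 on the KATO-III arrays, between 964 and 1571 on the SNU-216 arrays and between 1258 and 1339 on the SNU-601 arrays. The KATO-III arrays did not approach those of the other lines, and the log2 differences were -4.04 against SNU-216 (standard error 0.0707, adjusted p = 6.41e-11) and -4.14 against SNU-601 (adjusted p = 1.23e-10). SNU-216 and SNU-601 were not told apart for ACADM (difference -0.10, interval from -0.26 to 0.06). A row holds a gene symbol and not its probes, so a probe that fails in KATO-III and a low transcript level cannot be told apart.

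KATO-III lay above the other lines for PECI and below them for MGLL. PECI had a mean intensity of 420 in KATO-III, 112 in SNU-216 and 117 in SNU-601, and the log2 difference between KATO-III and SNU-216 was 2.27 (standard error 0.0869, adjusted p = 1.5e-08) and that between KATO-III and SNU-601 was 1.78 (adjusted p = 1.23e-07). SNU-216 lay under SNU-601 for PECI by a log2 difference of -0.49 (adjusted p = 0.000877), but with a floor 3 times as high it lay above it by 0.20, so the order of these lines is not settled. MGLL had a mean intensity of 234 in KATO-III, 437 in SNU-216 and 616 in SNU-601. The log2 differences of these means were -1.15 between KATO-III and SNU-216 (adjusted p = 5.56e-07, limma) and -0.70 between SNU-216 and SNU-601 (adjusted p = 2.08e-05). The arrays of the lines overlapped over both fractions, from 71.3 to 407 in KATO-III, 199 to 674 in SNU-216 and 569 to 687 in SNU-601.

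Of the remaining genes, CPT1A and HADHB had their highest line means in KATO-III, at 385 and 1838, and both lay above SNU-216 by a log2 difference of 0.65. ACADVL was highest in SNU-601, at 6375, against 5007 in SNU-216 and 4337 in KATO-III. DCI was lowest in KATO-III, at 4683, where the CD133- arrays were at 6384 or more, and HADHA was highest in SNU-216, at 918. CPT2 differed least, with line means between 3097 and 3451, and KATO-III and SNU-601 were not told apart (log2 difference -0.01, interval from -0.11 to 0.08).

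**Figure D3:**
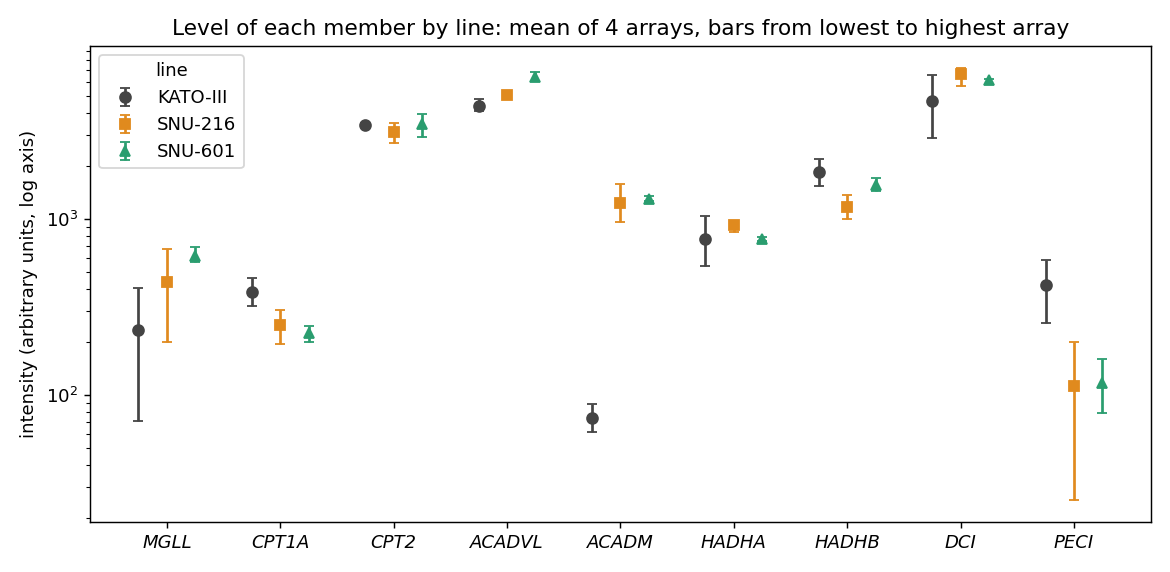
Mean intensity of each of the 9 genes over the 4 arrays of a line (log axis, arbitrary units), with bars from the lowest to the highest array, which span both fractions. ACADM is 74.0 in KATO-III against 1234 in SNU-216 and 1293 in SNU-601, and CPT2 is nearly level across the lines.

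To set the 9 genes in their pathway, 7 lists of 112 genes were taken by function, for lipases, uptake and activation, carnitine transfer, mitochondrial and peroxisomal oxidation, peroxisome assembly, and control. Without PECI and MGLL they hold 110 genes, of which 95 were tested. The other 15, among them the transporter CD36, the long-chain dehydrogenase ACADL and the transcription factor PPARA, lay above the floor on at most 1 array. Of the 95, limma called 15 higher and 34 lower in CD133+ cells of KATO-III, where 18.7% of all tested genes were higher and 20.6% lower. In SNU-216 it called 22 higher and 13 lower, against 14.6% and 14% of all genes. In SNU-601 it called 7 higher and 15 lower, against 8.59% and 7.78%. With arrays centred on their medians, the lower share of the called genes in SNU-601 was 48.1% in place of 68.2%, so no direction is given there. In KATO-III the same centring gave 19 higher and 29 lower, a lower share of 60.4% in place of 69.4%. The share of the 95 called in either direction was 51.6%, 36.8% and 23.2% in the 3 lines, close to the 51.4%, 40.1% and 22.4% of the 11674 genes above the floor on all arrays. Among those brighter genes 24% were higher and 27.4% lower in KATO-III, 20.1% and 20% in SNU-216, and 12% and 10.4% in SNU-601, beside 35.8% of the list genes lower in KATO-III. Of the 95 genes, 68 were called in at least 1 line (56.2% of all tested genes were) and 17 in opposite directions in 2 lines (10.9%).

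**Figure D4:**
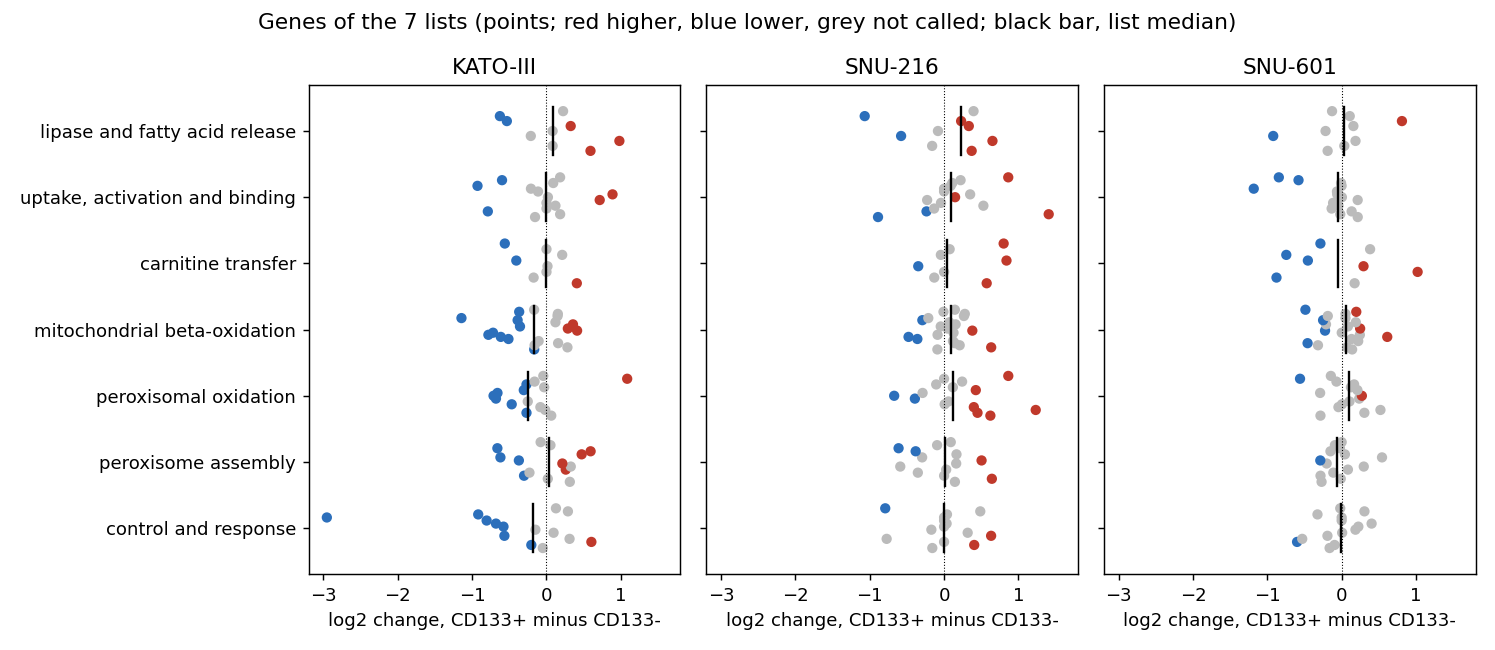
Log2 change, CD133+ minus CD133-, of the 95 tested genes of the 7 lists in each line (x axis), with a row of points per list. Red points were called higher, blue lower and grey not called by limma, and black bars are list medians; in KATO-III the medians of mitochondrial and peroxisomal oxidation lie at -0.16 and -0.25, and in SNU-216 at 0.10 and 0.12.

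Of 20 tested genes of mitochondrial beta-oxidation, 9 (45%) fell and 3 (15%) rose in CD133+ cells of KATO-III, where 20.6% of all tested genes fell and 18.7% rose. In SNU-216 3 (15%) fell and 2 (10%) rose, beside 14% and 14.6% of all genes. In SNU-601 4 (20%) fell and 3 (15%) rose, beside 7.78% and 8.59%. Among the genes above the floor on all arrays, 27.4% fell and 24% rose in KATO-III. In SNU-216 20% of them fell and 20.1% rose, and in SNU-601 10.4% fell and 12% rose. HSD17B10, a hydroxyacyl-CoA dehydrogenase of branched-chain breakdown, was the only gene of the lists called in the same direction in all 3 lines, where 1.06% of all tested genes were. Its intensity was 1733 ± 131 in CD133+ against 2265 ± 69.2 in CD133- cells of KATO-III, 1039 ± 37.9 against 1273 ± 65.9 in SNU-216, and 1154 ± 9.1 against 1373 ± 8.12 in SNU-601, with log2 changes of -0.39, -0.29 and -0.25. The call in SNU-601 (adjusted p = 0.0262) was lost without any 1 of the 4 arrays of that line (adjusted p between 0.0865 and 0.105), with no filter (0.0575), without a trend (0.0626) and with the replicate number as a block (0.0633), and that in SNU-216 without CD133+ replicate 2 (0.0514) or CD133- replicate 1 (0.052). A second row for this gene, under the older symbol HADH2, was not on the lists. Its KATO-III intensities were 1176 and 1181 (CD133+) against 1495 and 1487 (CD133-). For SNU-216 they were 705 and 714 against 857 and 768. For SNU-601 they were 869 and 779 against 922 and 873, so the nearest arrays of the fractions almost met. HADH2 thus lay lower on the CD133+ arrays in each line, and whether it passed the threshold is not given here. ACAD10, of the acyl-CoA dehydrogenase family, fell in KATO-III (-0.61) and SNU-216 (-0.48) and rose in SNU-601 (0.61). With only the arrays of a line, the calls of HSD17B10 in KATO-III (0.0569), SNU-216 (0.0876) and SNU-601 (0.0521) and of ACAD10 in SNU-216 (0.0796) and SNU-601 (0.0909) were lost.

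For peroxisomal oxidation the counts ran opposite ways in KATO-III and SNU-216. In KATO-III 7 of the 15 tested genes other than PECI fell and 1 rose, in SNU-216 6 rose and 2 fell, and in SNU-601 1 rose and 1 fell. Of all tested genes, 20.6% fell and 18.7% rose in KATO-III, 14% and 14.6% in SNU-216 and 7.78% and 8.59% in SNU-601. The called share was 53.3%, 53.3% and 13.3% in KATO-III, SNU-216 and SNU-601, beside 39.3%, 28.6% and 16.4% of all tested genes. Of the genes above the floor on all arrays, 51.4%, 40.1% and 22.4% were called. The difference between the counts of the lines was not tested. EHHADH, the peroxisomal bifunctional enzyme, was 85.2 ± 19.8 against 34.0 ± 7.13 in SNU-216 (1.23, adjusted p = 0.00057). Both values lie near the floor, and with a floor 3 times as high its change was 0.01. Its call was also lost with only the arrays of SNU-216 (adjusted p = 0.0854). ABCD3, the major peroxisomal membrane transporter, rose in SNU-216 from 466 ± 38.5 to 847 ± 10.5 (0.86, adjusted p = 0.000621).

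Lipases next to MGLL moved in several directions. DAGLB, a diacylglycerol lipase that makes the monoacylglycerol which MGLL cleaves, fell in KATO-III (log2 change -0.63) and SNU-216 (-1.07, from 3377 ± 293 to 1609 ± 66.1, adjusted p = 1.08e-05, limma), the lines in which MGLL had its larger differences. In SNU-601 DAGLB was 2278 ± 33.5 against 2114 ± 107 (0.11, adjusted p = 0.327). DAGLA, the other diacylglycerol lipase, fell in KATO-III (-0.53) and rose in SNU-216 (0.23) and SNU-601 (0.81), and its call in SNU-216 was lost without any 1 of the 4 arrays of that line (adjusted p between 0.0794 and 0.164), without a trend (0.0523) and with only those arrays (0.0506). Its call in SNU-601 was lost with only the arrays of that line (0.0685). PNPLA2, the triglyceride lipase, fell in SNU-601 from 3388 ± 124 to 1789 ± 10.3 (-0.92, adjusted p = 0.000337) and in SNU-216 (-0.58), while ABHD5, which activates PNPLA2, rose in KATO-III (0.98) and in SNU-216 (0.65). The call of ABHD5 in SNU-216 was lost without any 1 of the 4 arrays of that line (adjusted p between 0.0566 and 0.0599).

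Among genes of uptake and activation, 2 rose and 3 fell of 15 tested in KATO-III, 3 rose and 2 fell in SNU-216, and 3 fell in SNU-601. These are 33.3%, 33.3% and 20% of the list, beside 39.3%, 28.6% and 16.4% of all tested genes. ACSL4, an acyl-CoA synthetase that favors arachidonate, rose in KATO-III from 216 ± 1.62 to 401 ± 18.8 (log2 change 0.89, adjusted p = 0.00298). ACSS2, the cytosolic acetyl-CoA synthetase, fell there from 3553 ± 72.7 to 1869 ± 123 (-0.93), and ACSS1, the mitochondrial enzyme, fell in SNU-601 from 667 ± 6.45 to 294 ± 10.2 (-1.18). In SNU-216 SLC27A2, a fatty acid transporter and synthetase, rose from 65.9 ± 0.352 to 175 ± 17.8 (1.41), while SLC27A1 fell from 827 ± 11.4 to 447 ± 11.6 (-0.89). The change of SLC27A2 was 0.83 with a floor 3 times as high and 0.73 with an offset of 100, so its size depends on the floor.

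Of the 8 genes of carnitine transfer, 1 rose and 2 fell in KATO-III, 3 rose and 1 fell in SNU-216, and 2 rose and 4 fell in SNU-601. The called share was 37.5%, 50% and 75%, beside 39.3%, 28.6% and 16.4% of all tested genes. In SNU-601 22.4% of the genes above the floor on all arrays were called. The share of the list there rests in part on CPT1B and CPT1C, both near the floor, and on CPT2. With only the arrays of SNU-601, 3 genes of all the lists were called. CPT1C, the form found in brain, was above the floor only on the SNU-601 CD133+ arrays, at 57.6 and 76.5 against 23.1 and 28.7 in CD133- cells, and its call (log2 change 1.02) was lost with an offset in place of the floor (adjusted p = 0.128) and with only the arrays of SNU-601 (0.118). CPT1C passed the filter only through these 2 CD133+ arrays, and its other values were set to the floor. The filter therefore favored this call, which is in the counts above but is not support for a rise. CPT1B, the muscle form, was also dim in SNU-601, at 30.7 ± 3.4 in CD133+ against 60.6 ± 7.32 in CD133- cells (-0.88, adjusted p = 0.0238). Its call was lost without any 1 of the 4 arrays of that line (adjusted p between 0.0540 and 0.122), with a floor of 16.3 (0.0733), with no filter (0.0710), with an offset (0.108) with the replicate number as a block (0.0741) and with only those arrays (0.0840).

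Of 14 tested genes of peroxisome assembly, 4 rose and 4 fell in KATO-III, 2 rose and 2 fell in SNU-216 and 1 fell in SNU-601. These are 57.1%, 28.6% and 7.14% of the list, beside 39.3%, 28.6% and 16.4% of all tested genes. PEX16, which acts early in peroxisomal membrane formation, fell in KATO-III (log2 change -0.66) and SNU-216 (-0.61), from 1434 ± 20.2 to 908 ± 58.3 and from 1364 ± 5.2 to 893 ± 11.0. Of 14 tested genes of control and response, 7 fell and 1 rose in KATO-III, 2 rose and 1 fell in SNU-216 and 1 fell in SNU-601. The called share of this list was 57.1%, 21.4% and 7.14%, again beside 39.3%, 28.6% and 16.4% of all tested genes. UCP2, a carrier of the inner mitochondrial membrane, fell in SNU-216 from 2249 ± 82.6 to 1299.8 ± 51.3 (-0.79).

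The genes most like PECI and MGLL were found by Pearson's r of the log2 intensities over the 12 arrays after the mean of each line was subtracted. These r describe points that share lines and pairs of arrays, and they were the highest of all tested genes. For PECI they were AGA, a lysosomal glycoprotein hydrolase (r = 0.992), LOC441714 (0.986) and SLC1A4, a neutral amino acid transporter (0.984). AGA changed by 0.40, 0.93 and 0.28 on the log2 scale in KATO-III, SNU-216 and SNU-601. The order of lines is that of PECI with smaller sizes, and the choice by r favors such a likeness. For MGLL they were the small nuclear RNA gene RNU1-3 (0.994), EVPL, an envelope protein of squamous epithelia (0.992), and TMEM205 (0.991). EVPL changed by -0.69, -0.37 and -0.04 in the 3 lines.

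Arrays measure a mean over the sorted cells, so fewer expressing cells and less RNA per cell cannot be told apart for any of these genes.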

How the data were processed

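Total RNA of sorted cells was amplified, labelled and hybridized by the authors to Illumina Human HT-12 v3 BeadChips, and the submitters' processing notes name BeadStudio. The deposited values are intensities, linear and quantile-normalized by the authors, with a row per gene symbol. A background had been subtracted, since 32.1% of values are at or below 0. How it was estimated and how probes were combined is not given in the sources used here. Of 34688 rows, 93 were empty. Intensities under a floor of 32.7, the absolute value of the percentile 1 of the table, were set to it and log2 was taken. Genes above it on at least 2 arrays (58.2%) were tested.

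Populations were compared with limma 3.58.1 in R 4.3.3, with a mean-variance trend and a mean for each of the 6 populations (6 residual degrees of freedom). The comparison over all lines had cell line as a block (8 degrees of freedom). Benjamini-Hochberg adjusted p of 0.05 over all tested genes was the threshold. SDs and ± values are of linear intensities. Figures used Python 3.11.15 and matplotlib 3.10.9. The number of arrays, 2 per population, limits precision. The scripts were tested on simulated data.

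The 9 genes, the lists and the rule for named genes were chosen with earlier results of these data known. The rule named the 9 genes, PROM1, list genes called alike in all lines, the 3 largest called increases and decreases of each line, the largest called change of each list, and the 3 genes most like PECI and MGLL. Some genes that the rule or the lists hold are counted but not reported by name here. Matches between replicate numbers were checked by correlating the deviations of same-numbered arrays. Alternatives covered the floor, the scale, the filter, normalization, the trend, the replicate block, the arrays fitted and leaving out each array.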

Additional observations from a re-analysis of the deposited data

Results flagged for a closer look

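The change between CD133+ and CD133- cells differed between the lines, by limma's F-test of the interaction with Benjamini-Hochberg adjustment over all tested genes, for 21 of 24 named genes that were tested. All but the 7 tested genes and HSD17B10 were named for a large called change in a line, a choice that favors a difference between lines, so this count is not set against the share of all genes. Among the 7 tested genes the adjusted p was 0.000959 for CPT2, 0.0200 for ACADVL, 0.0269 for ACADM, 0.00148 for HADHA, 0.000325 for HADHB and 8.36e-05 for DCI. Among lipases it was 0.0408 for ABHD5, 4.22e-05 for DAGLA, 5.69e-05 for DAGLB and 0.00324 for PNPLA2. For uptake and activation it was 0.0289 for ACSL4, 0.000104 for ACSS1, 2.93e-05 for ACSS2, 0.00123 for SLC27A1 and 4.39e-05 for SLC27A2. It was 0.00167 for ABCD3, 0.00547 for EHHADH and 0.000570 for PEX16 among peroxisomal genes. It was 8.12e-05 for ACAD10, 0.00287 for CPT1C and 4.43e-05 for UCP2. Genes below the floor in other lines, such as CPT1C, have a change of 0 there by construction. CPT1C also passed the filter only through the SNU-601 CD133+ arrays, so its p for the interaction is not support for a difference.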

How the results depend on the processing

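Outside the fits that left out an array, 804 of 868 values of single genes kept their direction and their side of the threshold (or moved by less than 1 SD where untested), 40 lost the threshold, 8 passed it, 13 untested values moved and 3 changed sign. The signs that changed were PECI between SNU-216 and SNU-601 with 3 times the floor (0.20) and, with arrays centred on their medians, CPT2 over all lines (0.0132) and between KATO-III and SNU-601 (0.0131). The 1 call over all lines became 0 with a floor of 16.3, with the replicate block, with arrays averaged and with population as a random block. The 2 calls in SNU-601 became 1 without a trend and with the replicate block, and 0 with only the arrays of the line, where the 5 calls in KATO-III became 2. The pathway calls in SNU-601, 22, became 14 with the replicate block and 3 with only the arrays of the line. The cause was not tested. All genes called over all lines went from 953 to 2 with the replicate block, 425 without a filter, 1 with the random block and 0 on averaged arrays, and in SNU-601 from 3298 to 209 with only its own arrays. In SNU-216 and KATO-III their number was 2469 and 5251 with only the arrays of the line, against 5762 and 7917.

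With each array left out, the calls among the 7 genes ranged from 3 to 5 in KATO-III, 4 to 5 in SNU-216, 0 to 2 in SNU-601 and 0 to 1 over all lines, and the interaction from 4 to 6. The 9 level differences ranged from 8 to 9, and pathway calls from 39 to 48 in KATO-III, 30 to 37 in SNU-216 and 10 to 24 in SNU-601. The sign depended on the array left out for the log2 change of CPT2 in KATO-III (-0.0158 to 0.0430) and over all lines (-0.0723 to 0.0345), of HADHA in SNU-601 (-0.0422 to 0.0445), and for the level difference between KATO-III and SNU-601 of CPT2 (-0.0552 to 0.0273) and of HADHA (-0.114 to 0.00739). Same-numbered arrays of a line did not deviate together (r between -0.00648 and 0.0261), so the numbers do not pair them. PECI is not above the floor on all arrays and ACADM is at 3 times the floor in KATO-III, so these alternatives gave no value there.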
